A study of Homo sapiens with 4 samples.

Results

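The clustered protocadherins are cell-surface adhesion proteins of the cadherin superfamily, encoded in 3 neighbouring gene clusters on chromosome 5. The 53 genes described here, of 26364 in the count table, are every named coding member of those clusters, taken by symbol and without their pseudogenes. They comprise 15 alpha genes (PCDHA1 to PCDHA13, PCDHAC1 and PCDHAC2), 16 beta genes (PCDHB1 to PCDHB16) and 22 gamma genes (PCDHGA1 to PCDHGA12, PCDHGB1 to PCDHGB7, and PCDHGC3 to PCDHGC5). The family was picked because its genes had been seen to differ between the clones in these same data. Differences of these genes between clones are therefore given as a description, with no p-value for any of them, and tests are given for the treatment, which the choice did not use.

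RNA was sequenced from Ishikawa cells, a human endometrial adenocarcinoma line, that carried the ER-Y537S mutation of estrogen receptor alpha (ESR1). Each of 2 mutant clones was kept in hormone-deprived medium and then given, for 8 hours, either the vehicle (0.1% DMSO) or 10 nM estradiol (E2), which made 2 DMSO and 2 E2 libraries. All 4 libraries thus carried the mutation and the hormone deprivation, and no wild-type sample entered the comparisons. The names of the count columns hold the tag A4 or B212, which the labels do not explain, so the libraries are named by tag and treatment, and which numbered clone a tag stands for is not known. Each tag is 1 clone with 1 library per treatment, so a difference between tags describes those cells, and the p-values for E2 measure the spread between these libraries only. Per-gene counts cannot show the mutation itself.

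In neurons, each alpha and gamma variable exon has its own promoter and is spliced to constant exons shared by its cluster, whereas each beta gene is a single large exon with no constant part. Promoters are chosen largely at random in each cell, with a role for DNA methylation and for loops between promoters and distant enhancers that the factor CTCF and the cohesin complex hold. The resulting set of isoforms gives a cell a surface identity, because the proteins bind only to matching isoforms on another cell. The 5 C-type isoforms (PCDHAC1, PCDHAC2, PCDHGC3, PCDHGC4 and PCDHGC5) are controlled differently and are often shared by many cells. Outside the nervous system the clusters are known for promoter methylation in several kinds of tumour.

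Most protocadherin promoters hold a conserved sequence element with the core CGCT. Each 30-base window printed here holds a match to GNCGCT, in which N is any base, with the core in capitals. Windows run 5′ to 3′ on the plus strand, from RefSeq promoter sequences of GRCh38.p14. A match to so short a pattern does not by itself identify the conserved element. PCDHA4, PCDHAC1, PCDHB5, PCDHB13, PCDHGB4, PCDHGA10 and PCDHGC3 are shown because they were among the 3 genes of their cluster with the highest mean level. PCDHB14, PCDHGA4 and PCDHGC4, which the results below return to, and the nearly silent PCDHA8, PCDHB7 and PCDHGB5 were added after their values were seen. Only 1 match is printed per gene, and PCDHGB4, PCDHGB5 and PCDHGC3 hold others. In bases from the annotated start, PCDHGC3 is printed at -70 and has other cores at -197, -146, -115 and -51.
PCDHA4, chr5:140806980-140807009: ggagccacatgatgtCGCTctttaccacaa
PCDHA8, chr5:140841131-140841160: gaagccacatgatgtCGCTgtctaccaaga
PCDHAC1, chr5:140926221-140926250: cctagaaggtgtggtCGCTcacgttcaccg
PCDHB5, chr5:141135180-141135209: taggacgcctggtggCGCTgcaggctaaga
PCDHB13, chr5:141213866-141213895: gaggacgcgtggtggCGCTgcaggataaga
PCDHB14, chr5:141223264-141223293: ggagacacatggtggCGCTacaggataaga
PCDHB7, chr5:141172567-141172596: caaaacgcaaggtggCGCTgctggctaaaa
PCDHGA4, chr5:141354961-141354990: taagactctgggtgtCGCTgttcaccaatc
PCDHGA10, chr5:141412932-141412961: taggactctgagcgcCGCTgttcacctact
PCDHGB4, chr5:141387618-141387647: gctgactctgggcgcCGCTgttggccaaag
PCDHGB5, chr5:141397864-141397893: gctgactctgggcgcCGCTgttggccaaag
PCDHGC3, chr5:141475881-141475910: tgggactctgtgtgcCGCTgtcggccaatg
PCDHGC4, chr5:141484953-141484982: gctgagcccgggagcCGCTgtctgccaatc
The beta windows share the run GGTGGCGCT, which 13 of the 14 beta promoter windows held, against 0.501% of all 35116 RefSeq promoter windows of the same 300-base length. The run GATGTCGCT was present in 9 of the 13 alpha windows, against 0.105% of all windows. Both runs, and GNCGCT, in which N is any base, were chosen after the sequences were read, and they overlap the core CGCT. Each motif was searched on both strands.

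The 250 bases before the annotated start are printed for PCDHB5, higher in B212, and for C-type PCDHAC1 and PCDHAC2, higher in A4. These genes led their clusters by mean level. Every CGCT on the plus strand is in capitals.
PCDHB5, chr5:141134956-141135205: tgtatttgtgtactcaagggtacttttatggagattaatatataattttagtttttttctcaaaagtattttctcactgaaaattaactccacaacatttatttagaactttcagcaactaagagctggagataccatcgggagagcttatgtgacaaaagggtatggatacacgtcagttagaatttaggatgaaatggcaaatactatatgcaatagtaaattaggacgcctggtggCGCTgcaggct
PCDHAC1, chr5:140926049-140926298: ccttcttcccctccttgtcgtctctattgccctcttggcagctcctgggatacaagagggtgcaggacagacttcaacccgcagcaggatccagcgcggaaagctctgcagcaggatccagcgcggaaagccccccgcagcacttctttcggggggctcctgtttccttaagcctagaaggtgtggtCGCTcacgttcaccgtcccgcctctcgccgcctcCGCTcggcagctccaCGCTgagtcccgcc
PCDHAC2, chr5:140966226-140966475: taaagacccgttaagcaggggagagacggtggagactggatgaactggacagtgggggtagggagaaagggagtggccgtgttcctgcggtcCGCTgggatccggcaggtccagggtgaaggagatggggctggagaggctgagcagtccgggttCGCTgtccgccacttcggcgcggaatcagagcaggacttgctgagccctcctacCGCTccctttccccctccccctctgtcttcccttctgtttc
Counted in bases from the annotated start, PCDHB5 has its core at -11. PCDHAC1 has cores at -63, -29 and -14. PCDHAC2, which holds no GNCGCT on the plus strand, has cores at -158, -95 and -41.

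Windows were found for 47 of the 53 genes, 52 windows in all because a few genes have more than 1 annotated start. CGCT was present in 51 of the 52 windows (98.1%), against 70% of all windows, and GNCGCT in 49 (94.2%), against 44%. The core of the CTCF motif, searched as a strict pattern, was present in 1.92% of the member windows and 2.41% of all windows, and the TATA box TATAAA in 11.5% of both. The strict CTCF pattern misses variants of the site, so its rate does not show whether these promoters hold CTCF sites. Its match among the beta windows, in PCDHB9, overlaps the core of the conserved element, so the 2 searches are not independent. Matches to GNCGCT were found on both sides of the level used below for expression. On the plus strand, GNCGCT was present in 26 of the 28 genes with a window that reached 0.5 CPM (counts per 1000000 of the library total) in both libraries of a clone, and in 18 of the 19 that reached it in neither. The nearly silent PCDHA8 and PCDHB7 have their core at -41 and -62, and the read genes PCDHA4 and PCDHB13 at -73 and -38.

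**Figure D1:**
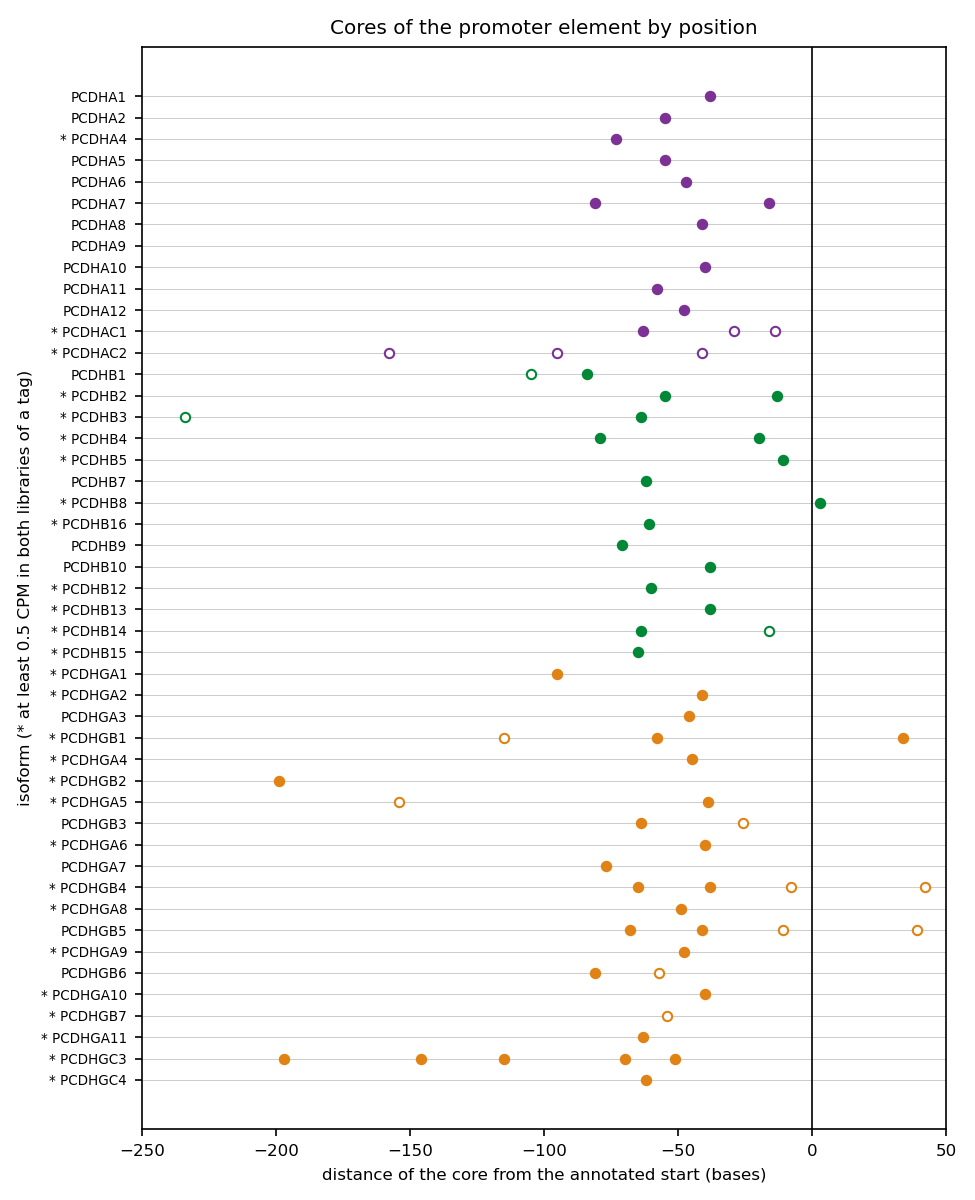
Position of each CGCT core on the plus strand of the RefSeq promoter windows (GRCh38.p14), by gene, as the distance in bases from the annotated start; filled points are cores that are part of GNCGCT, open points are other CGCT, and an asterisk marks a gene with at least 0.5 CPM in both libraries of a tag. Genes with and without the asterisk carry filled points in the same stretch upstream of the start.

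The libraries held 71575816 to 85222856 counts, detected 18358 to 18861 genes, and all differed from each other by more than sampling noise. Summed epithelial markers (EPCAM, KRT8, KRT18, CDH1) stood at 2026 and 1880 CPM in A4 (DMSO, E2) and 2537 and 2311 CPM in B212. The summed neuronal markers (SNAP25, SYT1, RBFOX3, STMN2, NEFL), of cells known for these isoforms, were higher in B212, at 1.94 and 1.49 CPM in A4 and 2.70 and 3.12 CPM in B212, with STMN2 and NEFL at 0 in every library. SNAP25 gave most of that gap, at 0.839 and 0.751 CPM against 1.67 and 1.87 CPM. Endothelial markers (PECAM1, CDH5, VWF) summed to 3.38 and 2.03 CPM in A4 and 4.60 and 3.70 CPM in B212 with PECAM1 at 0, and leukocyte markers (PTPRC, CD3E, CD68) to 1.58 to 2.44 CPM with CD3E at 0. Stromal markers (COL1A1, COL3A1, DCN, LUM, PDGFRB) moved the other way, at 128 and 89.9 CPM in A4 and 43.6 and 35.6 CPM in B212, nearly all of it from COL1A1, while DCN was at most 0.0135 CPM and LUM at most 0.0587 CPM. Within each tag the stromal and endothelial sums were lower in E2 than in DMSO. The part of these marker differences in the results below was not tested.

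Of the 53 genes, 27 reached 0.5 CPM in both libraries of A4 and 25 did so in both libraries of B212. The clones shared 22 of these genes. Only A4 met the level for 5 genes (PCDHA4, PCDHAC1, PCDHAC2, PCDHB3 and PCDHB6), and only B212 for 3 (PCDHB5, PCDHGA5 and PCDHGA6). The remaining 23 reached it in neither clone, including 12 of the 15 alpha genes, 4 of the 16 beta genes and 7 of the 22 gamma genes. Nearest to the level in A4 were PCDHB3 and PCDHB4 above it (lower library 0.528 and 0.551 CPM) and PCDHGA6 and PCDHGB6 below it (0.293 and 0.244 CPM). In B212 they were PCDHB4 and PCDHB12 above it (0.599 and 0.643 CPM) and PCDHB10 and PCDHAC2 below it (0.455 and 0.419 CPM). In cultures read as bulk RNA, few cells with much of an isoform and many cells with little of it cannot be told apart.

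Reads were scarcest in the alpha cluster. The 12 alpha genes below the level in both clones, PCDHA1 to PCDHA13 without PCDHA4, had 0 to 15 counts in a library, at most 0.203 CPM. PCDHB1, the outlying first gene of the beta cluster, had 0 counts in all 4 libraries, where 3 counts, the limit that a count of 0 allows, would be 0.0351 to 0.0410 CPM after TMM scaling (trimmed mean of M values). The beta genes PCDHB7, PCDHB9 and PCDHB10 and the gamma genes PCDHGA3, PCDHGB3, PCDHGA7, PCDHGB5, PCDHGB6, PCDHGA12 and PCDHGC5 were also below the level. In single libraries of B212, PCDHB9 reached 0.731 CPM (DMSO), PCDHB10 0.587 CPM (E2) and PCDHGB6 0.517 CPM (E2). In all, 12 genes stayed under 10 counts in every library.

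**Figure D2:**
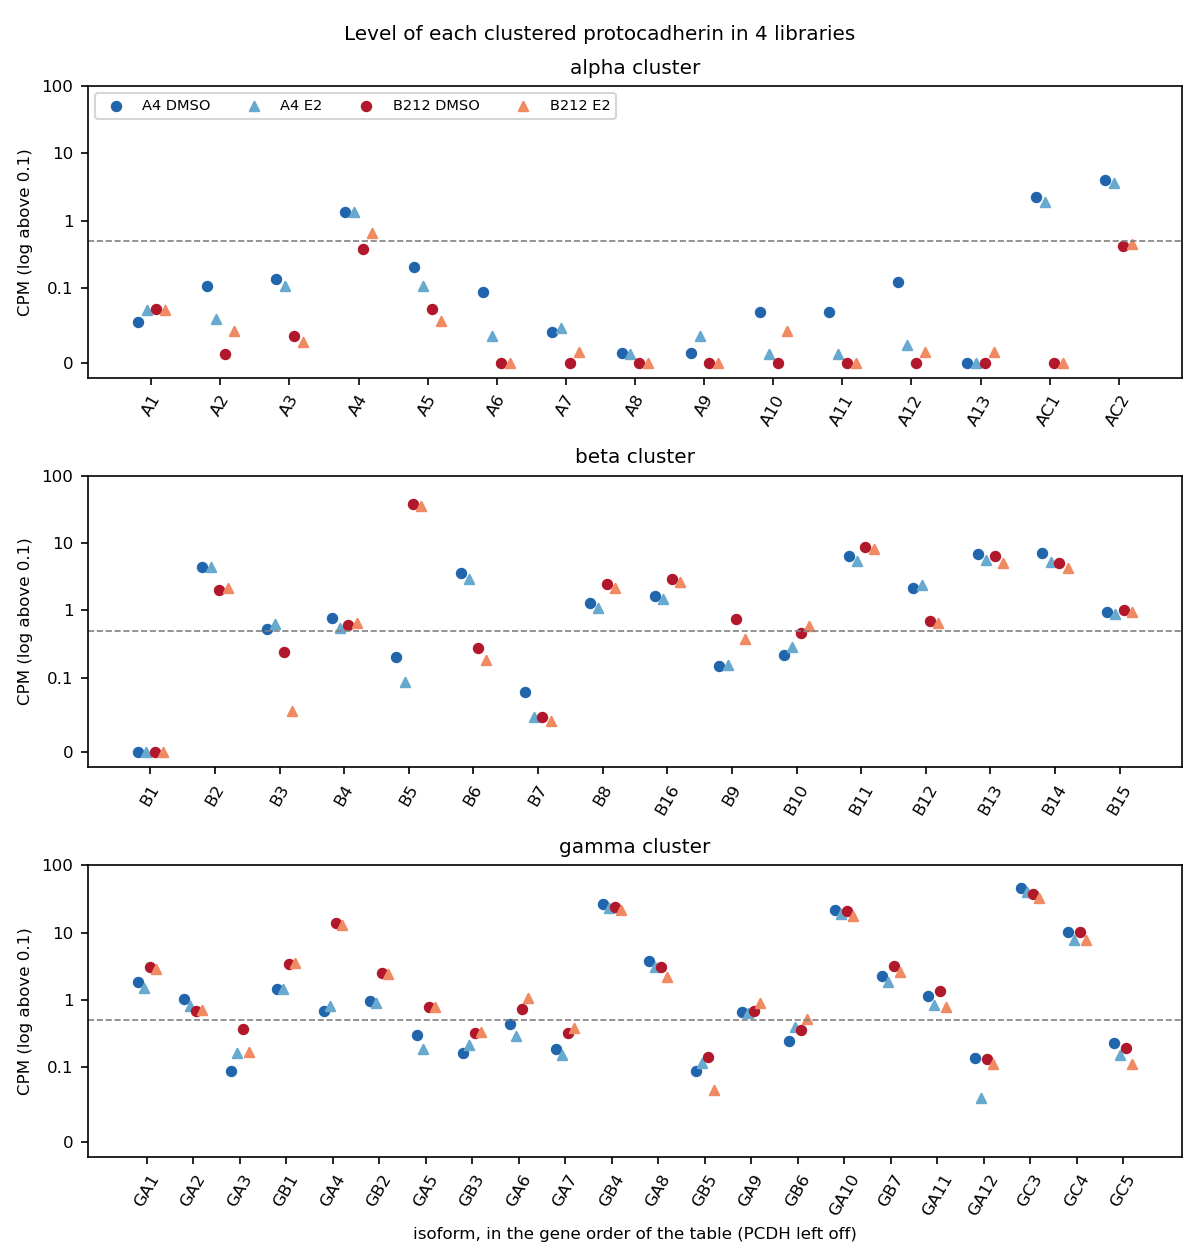
Level of each of the 53 genes in CPM (logarithmic above 0.1, linear below) in gene order along each cluster, with circles for DMSO, triangles for E2, blue for A4 and red for B212; the dashed line marks 0.5 CPM. The blue and red points part widely at AC1, AC2, B5, B6 and GA4 and lie together at GB4, GA10, GC3 and GC4.

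The gamma cluster carried most of the family's reads, with the same 3 genes on top in both clones. PCDHGC3, a C-type isoform known to bind the Wnt pathway scaffold Axin1, stood at 46.7 CPM (A4 DMSO), 40.1 CPM (A4 E2), 36.9 CPM (B212 DMSO) and 32.2 CPM (B212 E2). PCDHGB4 stood at 26.9, 23.3, 24.2 and 21.9 CPM in the same order, and PCDHGA10 at 21.8, 18.7, 20.7 and 17.7 CPM. Their tag ranges overlapped for PCDHGB4 and PCDHGA10, whereas both A4 values of PCDHGC3 were above both B212 values. PCDHGC4, the C-type isoform that mouse studies tie to the survival of interneurons, was nearly equal in the clones, at 10.1 and 7.83 CPM in A4 and 10.1 and 7.77 CPM in B212. The third gamma C-type gene, PCDHGC5, stayed at 0.112 to 0.230 CPM.

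Levels can be set against each other across genes only per length, here CPM per kilobase of exonic sequence that no other gene shares (GENCODE 29). On that scale PCDHGC3 (14.1 to 16.4) and PCDHGB4 (9.48 to 10.9) led in A4, followed by PCDHGA10 (4.18 to 4.88) and PCDHGC4 (2.80 to 3.61). In B212 the order was PCDHGC3 (11.3 to 13.0), PCDHB5 (10.3 to 11.2), PCDHGB4 (8.90 to 9.85), PCDHGA4 (4.79 to 5.19), PCDHGA10 (3.96 to 4.64) and PCDHGC4 (2.78 to 3.60). Neighbours in either order had ranges that did not overlap, by narrow margins for PCDHGC3 over PCDHB5, PCDHB5 over PCDHGB4 and PCDHGA4 over PCDHGA10 in B212, and these differences were not tested. The order depends on the length used, since how reads in the constant exons were counted is not known. Per kilobase of all exonic sequence, PCDHB5 in B212 (10.3 to 11.2) was above PCDHGC3 (6.41 to 7.34), and PCDHGA4 (2.65 to 2.88) overlapped PCDHGA10 (2.66 to 3.12). By either length PCDHB5 and PCDHGA4 stood among the most read family members in B212, while in A4 they were at 0.0275 to 0.0596 and 0.250 to 0.304 CPM per kilobase of unshared sequence.

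PCDHB5 had the largest gap between the clones among genes with counts in both, PCDHAC1 having none in B212. It had 15 (DMSO) and 8 (E2) counts in A4 against 3192 and 2512 counts in B212, or 0.203 and 0.0939 CPM against 38.2 and 35.1 CPM. On the log2 scale of the TMM-scaled fit, B212 was higher by 7.50 in DMSO and 8.43 in E2. PCDHB6, the next gene of the cluster, went the other way, at 3.59 and 2.92 CPM in A4 and 0.276 and 0.182 CPM in B212, a log2 difference of -3.74 and -4.08. Neighbouring isoforms were thus higher in opposite clones, and neither pair of ranges overlapped. Of the 50-base words in the exonic part of PCDHB5 that overlaps no other gene, 12.4% occur in another gene.

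The other beta genes ran from lower to higher in B212 with no common direction. PCDHB12 (2.13 and 2.41 CPM in A4, 0.695 and 0.643 in B212), PCDHB2 (4.43 and 4.44 against 2.00 and 2.15) and PCDHB3 (0.528 and 0.634 against 0.240 and 0.0559) were higher in A4 in both treatments. Their fitted log2 differences, B212 over A4, were -1.82, -1.16 and -2.02. That of PCDHB3 rests on 20 and 4 counts in B212, and was -1.18 without the B212 E2 or the A4 E2 library, -3.59 without the B212 DMSO library and -3.56 without the A4 DMSO library. PCDHB8 (1.30 and 1.09 CPM in A4, 2.46 and 2.17 in B212), PCDHB16 (1.65 and 1.49 against 2.91 and 2.64) and PCDHB11 (6.39 and 5.47 against 8.72 and 8.16) were higher in B212, by 0.89, 0.75 and 0.45. PCDHB13 (6.85 and 5.60 CPM in A4, 6.37 and 5.11 in B212) and PCDHB4 (0.758 and 0.551 against 0.599 and 0.643) had overlapping ranges. PCDHB15 (0.948 and 0.868 CPM in A4, 1.01 and 0.950 in B212) and PCDHB14 (7.0 and 5.22 against 5.10 and 4.22) had CPM ranges that did not overlap, by narrow margins. After TMM scaling the ranges of PCDHB15 overlapped, and its fitted log2 difference was 0.04. PCDHB8 and PCDHB13 are near copies: 49.3% of the 50-base words of PCDHB8, counted in the same way, occur elsewhere. PCDHB13 holds more of those words than any other gene, so the split of reads between PCDHB8 and PCDHB13 is uncertain. The same holds for PCDHB9 and PCDHB10, at 28.5% and 35.4%.

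All 3 alpha genes that reached the level did so in both libraries of A4, and none did in both of B212. PCDHAC1 had 167 and 160 counts in A4 (2.26 and 1.88 CPM) and 0 in both B212 libraries. Against the limit of 3 counts per library, it was at least 64.9-fold higher in A4 in DMSO and at least 47.7-fold higher in E2. PCDHAC2, which mouse work ties to the tiling of serotonergic axons, stood at 3.95 and 3.58 CPM in A4 and 0.419 and 0.447 CPM in B212, a log2 difference of -3.28 and -3.09. PCDHA4, the one alternately chosen alpha isoform to reach the level, stood at 1.33 and 1.34 CPM in A4 and 0.383 and 0.657 CPM in B212, a difference of -1.83 and -1.11. The CPM ranges of PCDHAC1, PCDHAC2 and PCDHA4 did not overlap between the tags. B212 kept some reads of PCDHA4 and PCDHAC2, while PCDHAC1 was not detectable there at this depth. The level takes no account of length, and PCDHA4 has 10557 bases of unshared exonic sequence. Per kilobase of such sequence, PCDHA4 stood at 0.126 and 0.127 CPM in A4 and 0.0363 and 0.0622 CPM in B212. PCDHA1, on few counts, stood at 0.0198 and 0.0258 CPM in A4 and 0.0263 and 0.0256 CPM in B212.

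Along the gamma cluster the differences fell into 2 stretches, a division made after the values were seen. Of the 10 genes from PCDHGA1 to PCDHGA7, in gene order, 9 had a fitted difference above 0 in B212 and PCDHGA2 one below it, from -0.47 to 4.09. PCDHGA3, among the 9, was at 0.0948 and 0.164 CPM in A4 and 0.371 and 0.168 CPM in B212, a log2 difference of 1.91 in DMSO and -0.06 in E2. PCDHGA4 had the largest of these, at 0.677 and 0.821 CPM in A4 and 14.1 and 13.0 CPM in B212, higher by 4.33 in DMSO and 3.89 in E2. PCDHGA5 (0.298 and 0.188 CPM in A4, 0.791 and 0.782 in B212), PCDHGB2 (0.961 and 0.904 against 2.49 and 2.39), PCDHGA6 (0.433 and 0.293 against 0.731 and 1.06) and PCDHGB1 (1.46 and 1.44 against 3.45 and 3.56) followed, at 1.64, 1.32, 1.23 and 1.20. PCDHGA1 (1.85 and 1.53 against 3.08 and 2.92) was higher by 0.76, and PCDHGA2 stood at 1.04 and 0.821 CPM in A4 and 0.695 and 0.713 CPM in B212. Summed over the stretch, B212 over A4 was 3.56 in DMSO and 3.64 in E2, and without PCDHGA4 it was 1.83 and 2.03.

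From PCDHGB4 to PCDHGC5, the other end of the cluster, the 11 tested genes lay between -0.46 and 0.44, 5 above and 6 below 0. The summed ratio there was 0.859 and 0.842. Beside the leading genes given above, this stretch holds PCDHGA8 (3.79 and 3.05 CPM in A4, 3.04 and 2.18 in B212), PCDHGB7 (2.23 and 1.82 against 3.16 and 2.60), PCDHGA11 (1.14 and 0.845 against 1.38 and 0.796) and PCDHGA9 (0.663 and 0.645 against 0.683 and 0.908). PCDHGA8 was lower and PCDHGB7 higher in B212 in both treatments, and the ranges of PCDHGA11 overlapped. The printed window of PCDHGB4 holds the same letters as that of the nearly silent PCDHGB5. Of the 50-base words in the own exonic part of PCDHGB4, 21.3% occur in other genes, more in PCDHGB5 than in any other.

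**Figure D3:**
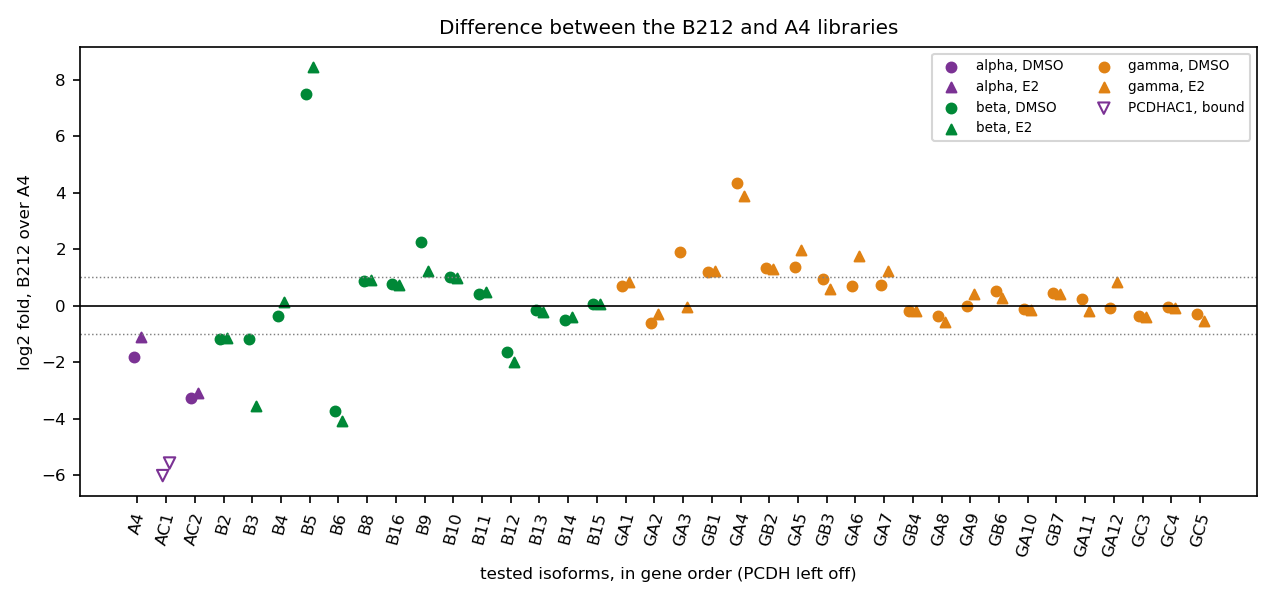
Difference between the tags for the 38 tested genes in gene order, as the log2 fold of B212 over A4 in DMSO (circles) and in E2 (triangles), coloured by cluster; dotted lines mark a log2 fold of 1 in either direction, and the open triangles give the bound for PCDHAC1, which has 0 counts in B212. B5 and GA4 lie far above 0, AC1, AC2 and B6 far below it, and the genes from GB4 onward lie near 0.

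Across the family, 38 of the 53 genes passed edgeR's filter on low counts, 3 alpha, 14 beta and 21 gamma. A log2 difference of at least 1 between the tags was fitted for 14 of the 38, 7 in each direction, beside 11.7% of all 15599 tested genes (7.6% higher and 4.11% lower in B212). With treatment as a covariate, 23 of the 38 passed an adjusted p of 0.05, beside 51% of all genes (25.2% higher and 25.8% lower), and 25 an unadjusted p of 0.05, beside 56.5%. Nothing is read from either count, since the family was chosen on this contrast and genes silent in both clones did not pass the filter. The 17 lower and 21 higher signs were the same under DESeq2 size factors and under scaling by library size only.

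By their whole profile over the 53 genes, libraries of 1 tag were close whatever the treatment. Pearson's r of log2(TMM-scaled CPM + 0.1) was 0.992 between the A4 libraries and 0.991 between the B212 libraries, and 0.770 to 0.781 between tags. Spearman's rho was 0.979 and 0.987 within tags and 0.783 to 0.793 between them. These are descriptions over genes of libraries that, within a tag, share their cells.

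The make-up of the alpha and beta clusters differed most between the clones. PCDHB5 took 0.561% and 0.300% of the beta counts in A4 (DMSO, E2) and 54.7% (95% Wilson interval 53.5% to 56.0%) and 55.7% (54.2% to 57.1%) in B212. In A4 the beta counts were spread instead over PCDHB14 (19.3% and 16.7%), PCDHB13 (18.9% and 17.9%) and PCDHB11 (17.6% and 17.5%), with PCDHB6 at 9.91% and 9.35%. PCDHGA4 took 0.559% and 0.794% of the gamma counts in A4 and 11.0% and 11.6% in B212, and PCDHGC3 38.6% and 38.7% against 29.0% and 28.7%. The 3 leading gamma genes together held 78.7% and 79.3% in A4 and 64.3% and 64.0% in B212. Among alpha counts, PCDHAC1 made up 26.7% and 25.7% in A4. In B212 it had 0 of 83 and 0 of 99 alpha counts, which allows a share of up to 3.61% and 3.03%. Intervals and limits cover counting error only.

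**Figure D4:**
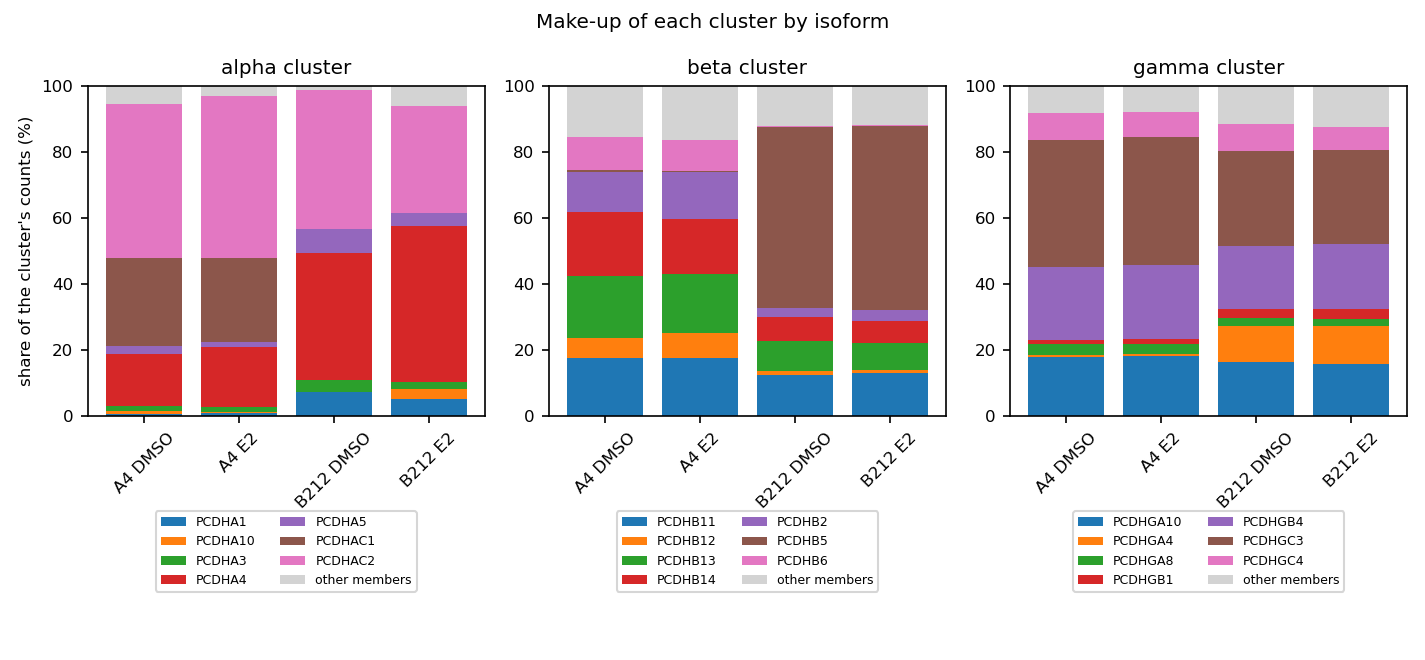
Share of each cluster's counts (percent, from 0 to 100) taken by each isoform in the 4 libraries; coloured segments are the isoforms among the leading ones of any library and grey is the rest of the cluster. PCDHB5 fills over 50 percent of the beta bar in both B212 libraries and is barely visible in A4.

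Summed over a cluster, the clones differed in alpha and beta and hardly in gamma. Alpha genes summed to 8.46 and 7.31 CPM in A4 and 0.994 and 1.38 CPM in B212, a TMM-scaled ratio of 0.114 (DMSO) and 0.178 (E2). Beta genes summed to 36.2 and 31.3 CPM against 69.9 and 63.0 CPM, a ratio of 1.87 and 1.90. The excess was that of PCDHB5, since the other 15 beta genes gave 0.851 and 0.842. Gamma genes gave 1.02 in both treatments and the whole family 1.16 and 1.17.

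Estradiol did not part the libraries of these genes as the tags did. The question asked was whether 8 hours of E2 changed the isoforms in cells whose receptor carries the mutation. With the 2 E2 libraries set against the 2 DMSO libraries by edgeR's quasi-likelihood test with Benjamini-Hochberg adjustment and no block for the tag, 0 of the 38 tested members and 0 of the 15599 genes (0%) were called. That test had 0 members and 150 genes (0.962%) with an unadjusted p under 0.05, and DESeq2 called 1 gene and no member. The tags add their whole difference to the spread in that fit.

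With the tag as a block, so that each E2 library is set against the DMSO library of its own clone, 1 of the 38 members was called, beside 1492 genes in all (9.56%, of which 6.13% higher and 3.44% lower). The member was PCDHGC4, which fell from 10.1 to 7.83 CPM in A4 and from 10.1 to 7.77 CPM in B212. Both E2 libraries lay below both DMSO libraries. Its log2 change was -0.35 ± 0.11 (SE), -0.32 within A4 and -0.38 within B212, with an adjusted p of 0.0421 by edgeR's quasi-likelihood test. That call depends on the fit: the adjusted p was 0.999925 without the block and 0.0641 with the block under DESeq2 size factors, and DESeq2 with the block gave the gene no adjusted p. In the exonic sequence that PCDHGC4 does not share with overlapping genes, no 50-base word occurs in another gene.

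None of the other members passed the adjusted threshold. Fitted changes ran from -0.65 (PCDHGC5) to 0.62 (PCDHGB6). They were below 0 for 28 of the 38 members, beside 51.5% of all genes, and the median was -0.16, beside -0.01 over all genes. Within each clone, 20 members were lower in both, 7 higher in both and 10 went opposite ways, while PCDHAC1 had no counts in B212. The 7 members with an unadjusted p under 0.05, beside 25.3% of all genes, were all lower in E2. After PCDHGC4 they were PCDHB14 (log2 change -0.33, adjusted p 0.0947 by edgeR with the block), PCDHGA11 (-0.59), PCDHGA8 (-0.37), PCDHGC3 (-0.19), PCDHB13 (-0.28) and PCDHGA10 (-0.20). They were named after their values were seen, and none but PCDHGC4 passed the adjustment. The genes with the widest gaps between clones showed no called change, with PCDHB5 at -0.17 ± 0.12, PCDHGA4 at -0.02 ± 0.14, PCDHB6 at -0.31 ± 0.21, PCDHAC2 at -0.05 ± 0.19 and PCDHAC1 at -0.22 ± 0.28 (SE). Members of a cluster share a region and, in alpha and gamma, constant exons, so they are not independent of each other.

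**Figure D5:**
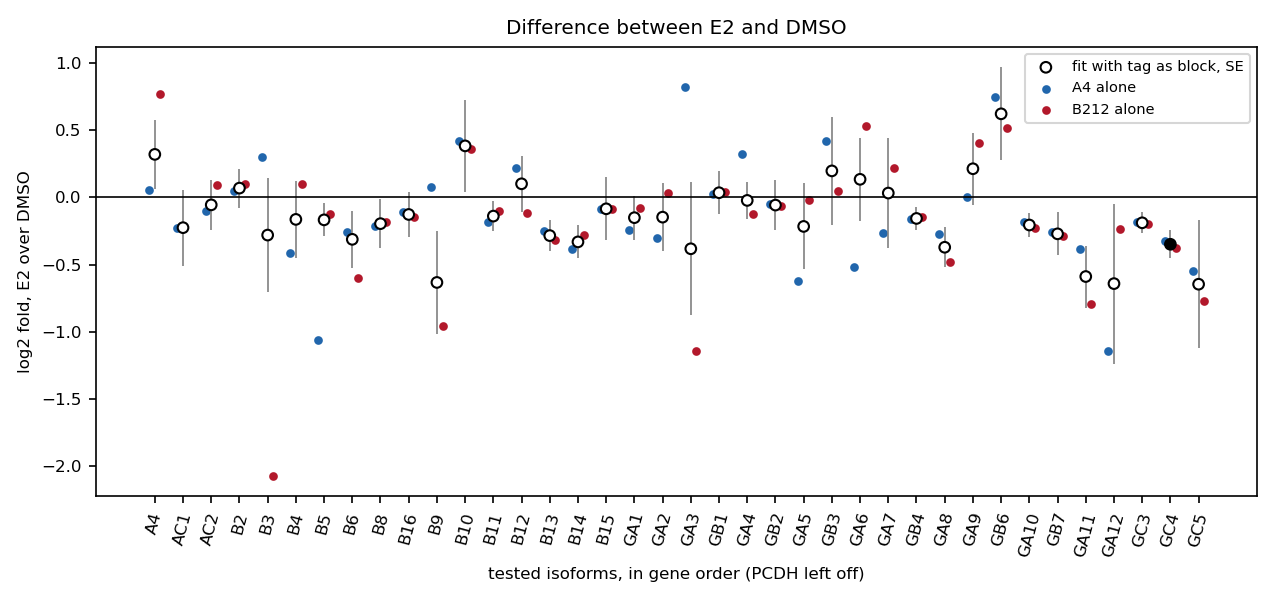
Difference between E2 and DMSO for the 38 tested genes, as the log2 fold of E2 over DMSO: black circles with bars give the edgeR fit with the tag as a block and its SE, and blue and red points give A4 and B212 alone. The filled circle, GC4, is the member called at an adjusted p under 0.05, and most circles lie slightly below 0.

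Genes for CTCF and cohesin, which loop these promoters to their enhancers, differed between the clones by less than 1 on the log2 scale. CTCF stood at 117 and 99.5 CPM in A4 and 114 and 105 CPM in B212, a log2 difference of -0.04, or 0.02 with scaling by library size only. Of the 12 tested genes for CTCF and cohesin, 2 were called between the tags (NIPBL, the cohesin loader, at 0.31 and PDS5B, a cohesin regulator, at 0.27), beside 51% of all genes. PDS5A, another cohesin regulator, and STAG2, a cohesin subunit, were each at 0.15. In the list for DNA methylation and silencing, 2 of 15 tested genes were called, beside 51%: UHRF1, which brings the maintenance methyltransferase to DNA, at 0.52, and WIZ, a zinc finger partner of histone methyltransferases, at -0.26. DNMT3B, a de novo methyltransferase, was at -0.19. E2 with the block called none of the CTCF and cohesin genes, and WIZ alone of the silencing list (-0.30, adjusted p 0.0174, edgeR).

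Binding partners and relatives of the family were set beside the shares of all genes between the tags, 51% called and 11.7% with a log2 difference of at least 1. Of 20 partner genes, 13 were called and 2 differed by at least 1: RET, the receptor kinase that alpha and gamma isoforms bind, at 1.90 and 1.91 CPM in A4 and 0.0359 and 0.140 CPM in B212 (log2 difference -4.54), and PTK2B, a kinase that the constant domains inhibit, at 1.19. PSEN2, a catalytic part of gamma-secretase, which cuts protocadherins, was at -0.85. Of 10 tested non-clustered protocadherins, 8 were called and 4 differed by at least 1: PCDH15 at 3.05, PCDH19 at 2.80, PCDH7 at -1.20 and PCDH17 at 1.00. Of 8 tested cadherins and catenins, 7 were called, all higher in B212 (25.2% of all genes were called higher), led by CDH6 at 2.98, then CDH3 at 0.74 and CTNND1 at 0.54. Of the genes beside or inside the clusters, 5 of 13 were called and none reached 1, with ARAP3 at 0.75, HDAC3 at -0.46 and HARS1 at -0.41.

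For E2, the blocked edgeR fit called 4 partner genes, beside 9.56% of all genes. PDCD10, which binds the gamma constant domain, rose by 0.49 on the log2 scale. ADAM10, the sheddase that releases protocadherin ectodomains, fell by 0.30, and CYFIP2 and WASF2, parts of the actin-regulating WAVE complex, fell by 0.27 and 0.24. Among the cadherins and catenins JUP fell by 0.51, CTNNA1 by 0.29 and CDH6 by 0.26. TAF7, which lies between the beta and gamma clusters, rose by 0.25 and NDUFA2, beside the alpha cluster, by 0.45. No gene of any list was called without the block, and the list medians with it ran from -0.13 (cadherins and catenins) to -0.01 (genes beside or inside the clusters), beside -0.01 over all genes.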

How the data were processed

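The members and the gene lists were chosen with earlier results of these data known. Whole-number read counts per gene symbol were deposited for poly(A) RNA (stranded kit, 500 ng input, per the labels' protocols). The submitters' processing notes name HISAT2, SAMtools, featureCounts, DESeq2 and hg19. The annotation, the strand setting and the treatment of reads in shared constant exons or near copies are not given in the sources used here. Another 4 columns matched no sample and were not used.

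From the counts, CPM used each library's total. Genes were kept by filterByExpr (minimum count 10), scaled by TMM and tested with edgeR 4.0.16 (quasi-likelihood, Benjamini-Hochberg, threshold 0.05, R 4.3.3) over all 15599 genes. The treatment fit had no block, and the comparison of tags had a treatment term. DESeq2 1.42.0 was an alternative. Scripts were tested on simulated data.

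The tag pairs libraries because both come from 1 clone by their column names. Deviations of same-tag libraries from group means correlated (r = 0.871). Genes at 0.5 CPM in both libraries of a tag were named with every value, with those called for E2, CTCF, and of each list the 3 largest tag differences. Alternatives covered scaling, filter, tool, block, level and left-out libraries. Lengths and shared words came from GENCODE 29, and promoter sequences from RefSeq (GRCh38.p14). No protein sequence was used here.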

Additional observations from a re-analysis of the deposited data

Results flagged for a closer look

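The summed alpha genes moved in opposite directions with E2 in the clones. On the log2 scale of TMM-scaled CPM, E2 over DMSO was -0.17 in A4 and 0.47 in B212, a gap of 0.64. The B212 sums rest on 83 and 99 counts, and PCDHA4, with 32 and 47 of them, holds most of the increase. With 1 library per tag and treatment, the difference between the clones was not tested.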

How the results depend on the processing

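Whether E2 calls any gene depends on the block. With the tag as a replicate block, edgeR called 1492 genes under TMM scaling, 717 under DESeq2 size factors, 1686 under library size only (added after seeing the data) and 1770 with no filter, and DESeq2 called 562. Without the block, DESeq2 called 1 gene and the other fits 0, also with each library left out (0 to 0), where a lone library was assumed to vary like the rest. The block called 1 member, PCDHGC4, under TMM, with no filter and under library size only, and 0 under DESeq2 size factors and in DESeq2. Libraries were left out only in the fit without the block, where the log2 change of PCDHGC4 ran from -0.42 to -0.30. Of the calls with the block, 64.1% were higher in E2 under TMM and 54% under library size only. The block called 1 gene of the silencing list, 4 partners, 3 cadherins and catenins and 2 genes beside or inside the clusters. The partners' median was -0.091 under DESeq2 size factors and -0.085 with no filter, and that of the cadherins and catenins -0.13 with the block, -0.14 under DESeq2 size factors and -0.14 with no filter. Between the tags, 7950 genes were called, 4456 of 15599 without the treatment term; of the calls, 49.4% were higher in B212 under TMM and 60% under library size only, which moved the median of all genes by 0.07. The cause of these shifts was not tested. The signs of the 38 tested members were the same under all 3 scalings in both comparisons, whereas among the named list genes CTCF (-0.04 between the tags under TMM) was at 0.02 under library size only. The genes at the level numbered 37 in A4 and 36 in B212 at 0.1 CPM, 19 and 17 at 1 CPM, 35 and 34 at 10 counts, and, with 1 library of the tag left out, 27 in A4 and 26 to 28 in B212. Depth limits the alpha genes most: B212 had 83 and 99 alpha counts per library.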

Other observations

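The table also lists 4 pseudogenes of the clusters, which the member count leaves out. PCDHB18P had 30 and 42 counts in A4 (DMSO, E2) and 32 and 36 in B212. PCDHB19P had 10 and 6 counts in A4 and 4 and 3 in B212. PCDHGB8P and PCDHB17P had 1 to 11 counts in a library.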
